A study of Mus musculus with 8 samples.

Results

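Lefty2 and Tdgf1, both genes of the Nodal pathway, were followed across all 42 cell states of a single-cell map of early mouse development. The members were taken by name and are 2 of the genes of a deposited table that holds 29904 values, 1 for each gene in each of the 42 states. The series labels give 8 libraries of wild-type embryos: 1 library at embryonic day 6.5, 1 at day 7.0 and 2 each at days 7.5, 8.0 and 8.5, with 4 to 10 embryos pooled per library. All embryos came from B6D2F1 oocytes injected with sperm of B6/CAST F1 males, were cultured to the blastocyst stage and were carried by CD-1 surrogates, so all groups share this origin. Whole embryos were used, with outer extraembryonic tissue kept where possible. The table does not say which libraries or stages the cells of a state came from. The labels give the embryos of the later 2 stages as libraries a and b of 10 embryos and do not say whether both libraries of a stage came from one pool.

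Nodal is a secreted ligand of the TGF-beta family that patterns the embryo before and during gastrulation. It signals through activin receptors and needs an EGF-CFC co-receptor on the receiving cell, a role filled in the early embryo by the protein of Tdgf1, also known as Cripto. Lefty2 encodes a secreted, diverged member of the same ligand family that blocks this signal and is itself induced by it, which makes a negative feedback loop. In the mouse Lefty2 is known from the newly formed mesoderm of the primitive streak and, later, from the left lateral plate, and Tdgf1 from the epiblast, the streak and the developing heart.

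The table gives 1 value for each gene and state, called the level here, which the authors deposited as a cluster centre on a scale that is not stated. Levels in the whole table ran from 0 to 1.79 with a median of 0.051. No column names a library or a stage, so the level of a state has no replicate, no error and no test, and no 2 neighbouring states in an order can be said to differ beyond a measured spread. Reads and cells per state are unknown, and levels near 0 in particular may rest on few reads. States were named from marker lists that leave out Lefty2, Tdgf1, Nodal, Lefty1, Cer1 and Cfc1. By these, 33 states took a name, and 9, among them states 2, 3, 6 and 12, did not.

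Lefty2 (ENSMUSG00000066652.5) lies on the plus strand of chromosome 1 at 180893108 to 180899103 (GRCm38, GENCODE M21) and its longest transcript has 4 exons. Its paralogue Lefty1, which is known from the visceral endoderm and midline and was not analysed here, starts 35918 bases further along the same strand. Tdgf1 (ENSMUSG00000032494.12) lies on the minus strand of chromosome 9 at 110939603 to 110946158, with 6 exons in its longest transcript, and has processed pseudogenes on chromosomes 16 (Tdgf1-ps1) and 17 (Tdgf1-ps2). Of the 50-base words of the longest Lefty2 transcript, 281 of 2424 (11.6%) also occur in Lefty1. For Tdgf1, 236 of 1883 words (12.5%) also occur in Tdgf1-ps1. In the last 500 bases of either transcript, the part nearest to where 3' libraries prime, 0 words occur in a transcript of another gene.

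The start region of Tdgf1 is shown because its levels set the epiblast and heart part of the results, and that of Mesp1 because this gene was the closest in pattern to Lefty2. Both run from 250 bases before to 50 bases after the annotated start (RefSeq, GRCm38.p6), and both genes read from the minus strand, Tdgf1 at chr9:110946109-110946408 and Mesp1 at chr7:79793541-79793840. Capitals mark matches, on either strand, to short motifs of factors that act in or beside the Nodal pathway and, in Tdgf1, to GC-rich words.

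Tdgf1: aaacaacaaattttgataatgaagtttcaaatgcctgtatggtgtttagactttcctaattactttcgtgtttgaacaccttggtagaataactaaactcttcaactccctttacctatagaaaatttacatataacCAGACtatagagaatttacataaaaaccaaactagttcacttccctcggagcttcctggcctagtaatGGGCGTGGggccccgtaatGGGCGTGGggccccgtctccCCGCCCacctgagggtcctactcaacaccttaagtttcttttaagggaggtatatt

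Mesp1: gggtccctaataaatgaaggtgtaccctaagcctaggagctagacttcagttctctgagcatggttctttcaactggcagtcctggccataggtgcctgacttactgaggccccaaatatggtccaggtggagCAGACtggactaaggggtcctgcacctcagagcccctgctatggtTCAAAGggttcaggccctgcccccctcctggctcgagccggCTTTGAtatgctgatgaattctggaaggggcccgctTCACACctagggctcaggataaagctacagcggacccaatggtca

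Among these capitals, CAGAC is the short element bound by SMAD proteins, which carry the Nodal signal. It is at position -113 of Tdgf1 and -117 of Mesp1, counted from the start, and at least 1 copy is in 49.5% of 32544 mouse start regions of this length. TCACAC is a T-box motif, found once in Mesp1 at position 6 and in 14.3% of start regions, and CTTTGA is a TCF/LEF motif, found at -72 (minus strand) and -31 of Mesp1 and in 5215 of the 32544 start regions. The GC-rich words GGGCGTGG, at -45 and -26 of Tdgf1, and GGGCGG, at -6 on the minus strand, are in 5.37% and 35.9% of start regions. The GGGCGTGG pair sits in a repeat, in which the 21 bases gtaatgggcgtggggccccgt occur again 19 bases further on. The FOXH1 words AATCCACA and AATACACA, in 0.854% and 0.983% of start regions, are not in either window, nor are the octamer words ATGCAAAT (1.75%) and ATGCNAAT (3.18%), of which the first is a case of the second. Both strands were searched, the matches shown do not overlap, the GC-rich words were added after the sequence had been seen, and a match is a description of letters only. Of the 16 genes looked up, made up of both members and the genes most like them, 13 had an entry in the table of start regions, and Lefty2, Mixl1 and Pmaip1 had none.

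Both genes were highest in nascent mesoderm-like state 37. Lefty2 stood there at 1.12 and Tdgf1 at 0.947, against means of 0.0711 and 0.0915 over the other 41 states. State 37 is named by 10 of 13 measured nascent mesoderm markers that lie over 1 SD above their mean, among them Mesp1. The primitive streak list came second, with 7 of 10 over 1 SD, and each list had 4 of the state's 10 leading genes. State 37 was the highest state of only 10 genes of the table (1.40%), of which Lefty2, Tdgf1, Mesp1, Mixl1, Lhx1, Mesp2 and Frzb are 7. The others were Pmaip1, Agtrap and Chst7. Mesp1, Mixl1, Lhx1, Mesp2 and Frzb are on the marker list that named the state, so their place here follows in part from the naming. By difference from the mean of the other states, Lefty2 was the second and Tdgf1 the third leading gene of state 37, after Mesp1.

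**Figure D1:**
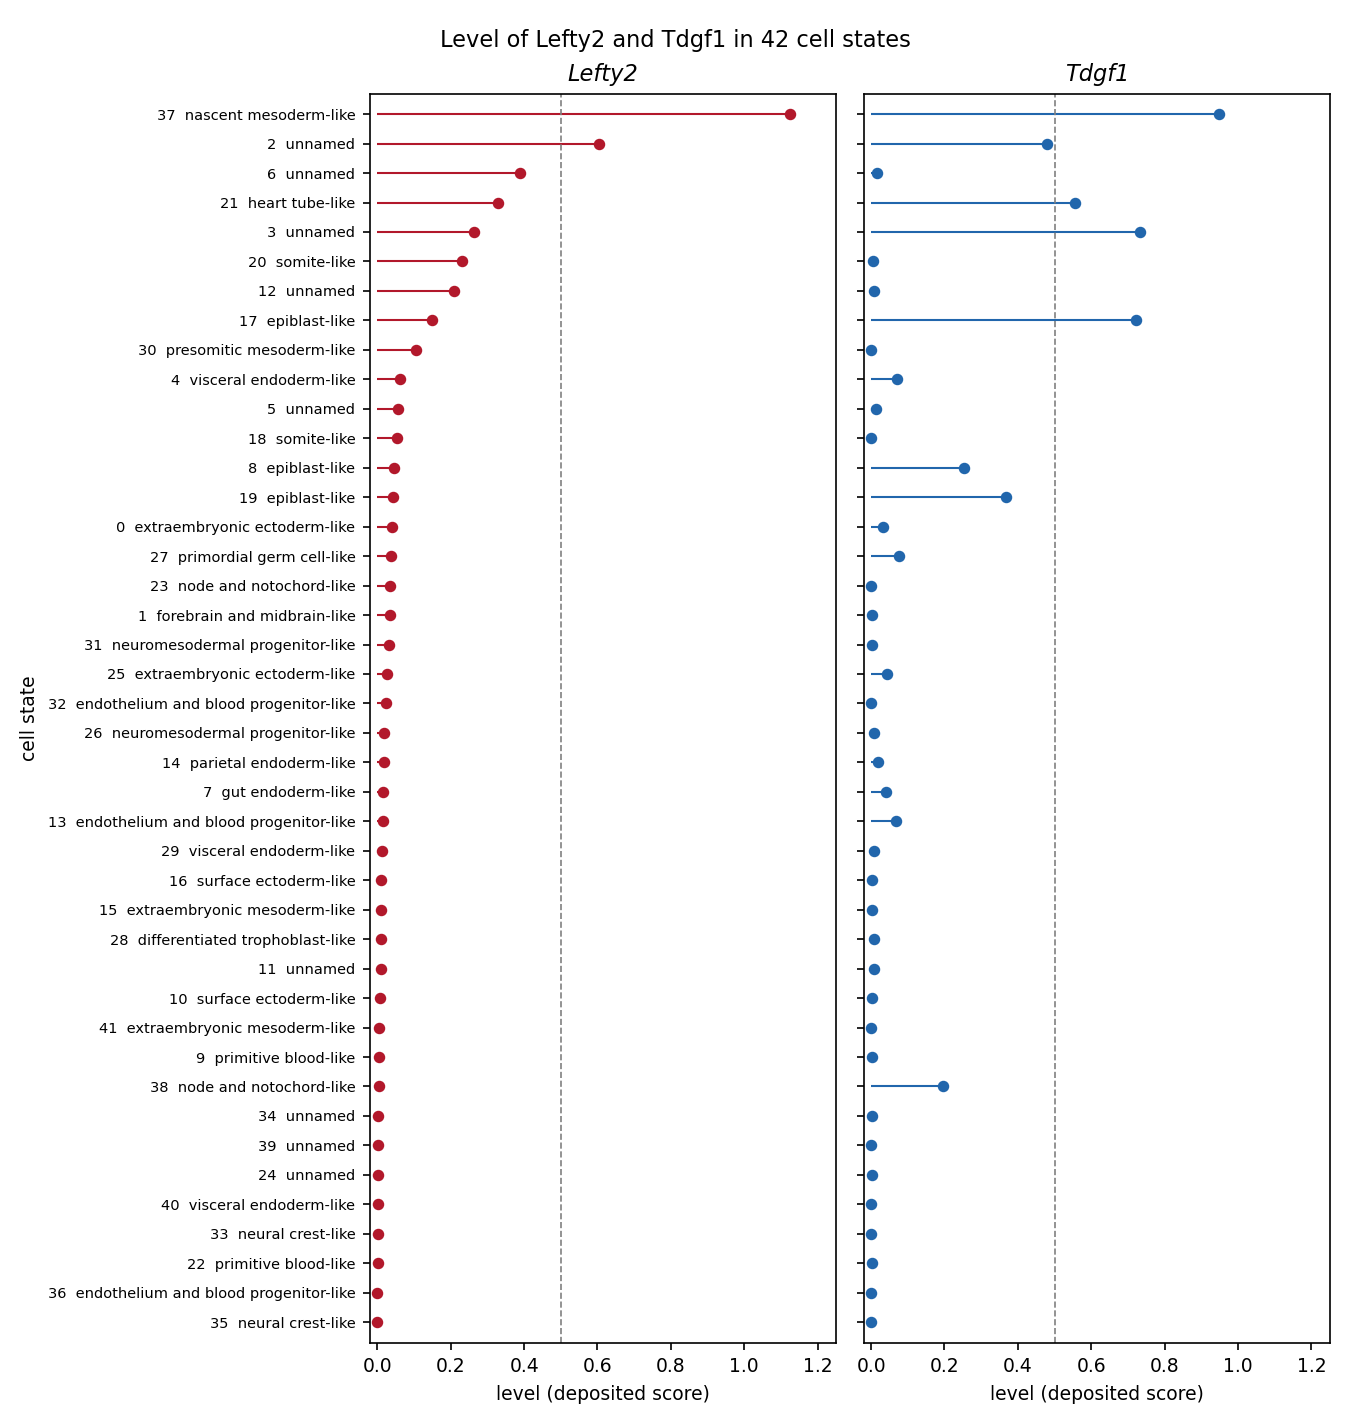
Level of Lefty2 (left) and Tdgf1 (right) in each of the 42 cell states, on the deposited score. States run from high to low Lefty2, 1 point is the single value of a state, and the dashed line is at 0.5. Both genes peak in state 37, and most other states lie near 0 for both.

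Lefty2 reached 0.5 in 2 states and lay above 0.1 in 9. Unnamed state 2 came next at 0.603, a step of 0.522 below state 37, and 88 genes of the table (12.4%) have a gap of at least 0.5 between their highest and second state. State 2 holds markers of both nascent mesoderm (12 of 13 over 1 SD) and presomitic mesoderm (8 of 10). State 6 had 0.389, a step of 0.214 below state 2, and the steps below it were each under 0.1. Heart tube-like state 21 had 0.329 and state 3 had 0.264. Somite-like state 20 (0.230), state 12 (0.210), epiblast-like state 17 (0.149) and presomitic mesoderm-like state 30 (0.106) were the remaining states above 0.1. The other 33 states lay below 0.1, 12 of them below 0.01, and Lefty2 was listed at 0 in states 35 and 36. States 37, 2 and 3, of which state 3 had less Lefty2 than states 6 and 21, together held 49.3% of the level of Lefty2 summed over all states.

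Tdgf1 reached 0.5 in 4 states, which carry nascent mesoderm, epiblast or heart markers. State 3 had 0.732, a step of 0.215 below state 37, and epiblast-like state 17 had 0.722, only 0.010 less than state 3. Heart tube-like state 21 followed at 0.557, state 2 at 0.480, and epiblast-like states 19 and 8 at 0.368 and 0.252. Node and notochord-like state 38 was the last state above 0.1, at 0.196. The other 34 states lay below 0.1, 25 of them below 0.01, and Tdgf1 was listed at 0 in 5 states. Those 5 were node and notochord-like state 23, visceral endoderm-like state 40, extraembryonic mesoderm-like state 41, and states 35 and 36.

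Set side by side, the genes divided the states into 4 groups. In 5 states both lay above 0.1: states 37, 2, 3, 17 and 21. In states 6, 20, 12 and 30, which carry mesoderm markers, Lefty2 lay above 0.1 and Tdgf1 at 0.0165 or below. In states 8, 19 and 38 only Tdgf1 lay above 0.1, with Lefty2 at 0.045 or below. In the other 30 states neither did. Across the 42 states the levels of the genes correlated with Pearson's r = 0.733, given as a description because states share libraries, depth and normalisation. It was 0.566 without state 37.

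**Figure D2:**
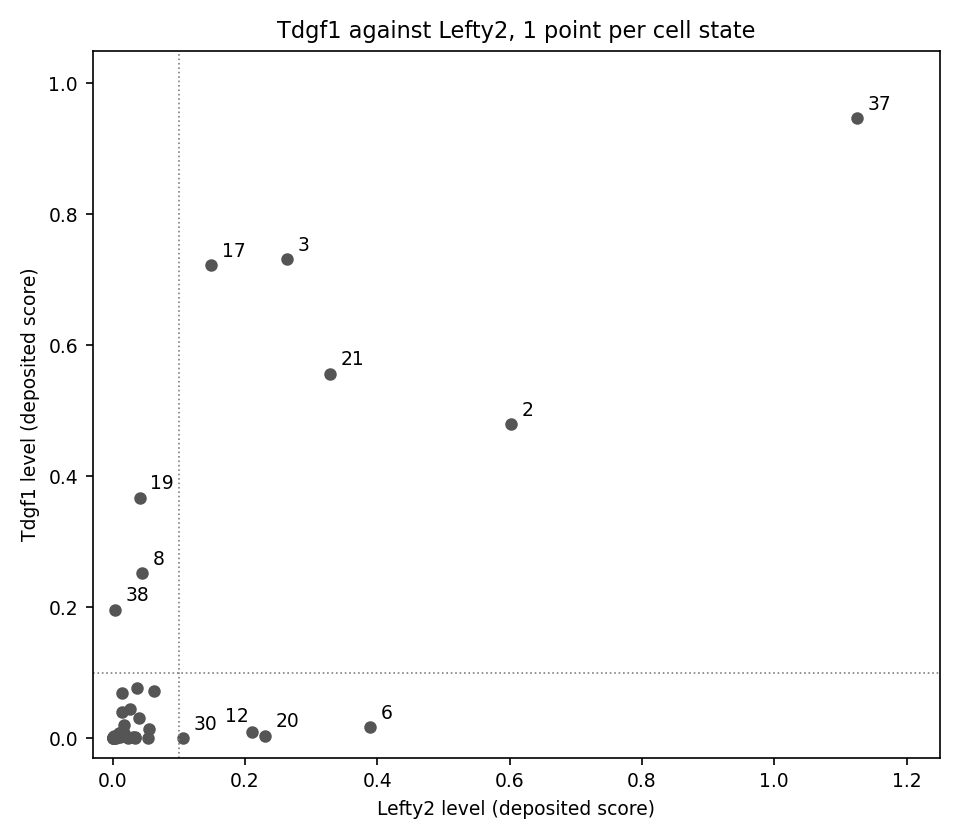
Tdgf1 level (vertical) against Lefty2 level (horizontal), both as deposited scores, with 1 point for each of the 42 states and state numbers beside points above 0.1 for either gene. Dotted lines are at 0.1. State 37 stands alone at the upper right, and states 6, 12, 20 and 30 lie along the Lefty2 axis. Epiblast-like state 17 and state 3 are high in Tdgf1, with Lefty2 at 0.149 and 0.264.

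A gene was counted as different between 2 sets of states when its mean levels differed by at least 0.5 and the sets did not overlap. By that rule Lefty2 passed 3 and Tdgf1 3 of 12 comparisons.

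**Figure D3:**
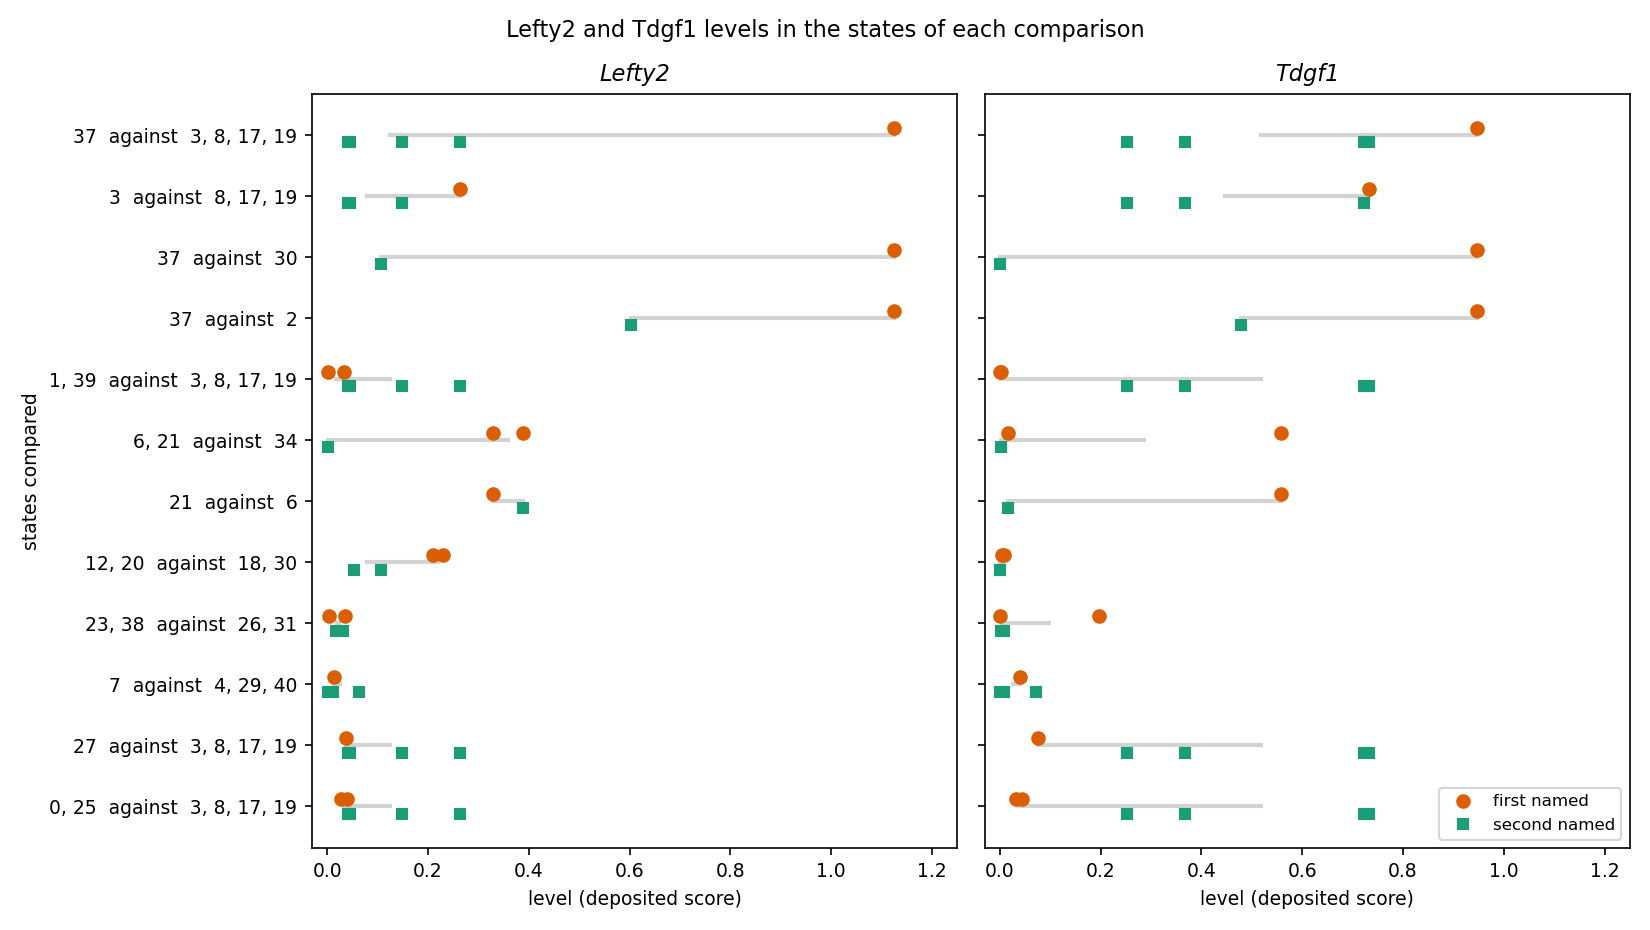
Level (deposited score) of Lefty2 (left) and Tdgf1 (right) in the states of the 12 comparisons, named by state number. Circles are the states named first, squares the states named second, and the grey bar joins the 2 means. The largest separations are those of state 37 from the epiblast-marked states for Lefty2 and from state 30 for both genes.

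Both genes were higher in nascent mesoderm-like state 37 than in each of the epiblast-marked states, and the difference of Lefty2 passed. In state 37 Lefty2 was at 1.12, against 0.264, 0.045, 0.149 and 0.041 in states 3, 8, 17 and 19, which carry epiblast markers. This difference of 1.00 was the largest of all genes in either direction, and 17 genes (2.39%) passed. Tdgf1 was at 0.947 in state 37, against 0.732, 0.252, 0.722 and 0.368 in the same states. State 37 lay above all 4, but the difference of 0.429 fell short of 0.5. Of the 11 measured genes listed as downstream of Nodal in streak and mesoderm, 3 passed as higher in state 37 and 0 as lower. The genes that passed were Mesp1, Lhx1 and T. The median difference of the 11 was 0.19, against -0.001 over all genes. Mesp1, Lhx1, T, Eomes, Mixl1 and Mesp2 are also on the marker list that named state 37. The passes and the median therefore follow in part from the naming. Mesp1, a transcription factor of the first mesoderm, was at 1.20 in state 37, against 0.588 in state 3 and 0.018 in state 17. Of 14 measured pluripotency and epiblast genes 2 passed as lower, Utf1 and Pim2, and 0 as higher. Both are also on the epiblast marker list by which the epiblast-marked states were chosen, so this too follows in part from the naming.

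Within the epiblast-marked states both members varied. State 3 has 8 of 10 measured streak markers and 11 of 13 epiblast markers over 1 SD. It exceeded states 8, 17 and 19 by 0.185 for Lefty2 and 0.285 for Tdgf1 on average, and neither passed, where 2 of all genes did (0.281%), Mesp1 and T. State 8 is the state most like state 17, with r = 0.918 across the other genes. Tdgf1 stood at 0.722 in state 17, against 0.252 in state 8, and Lefty2 at 0.149, against 0.045. State 17 has a similar level of the pluripotency factor Pou5f1 (1.18 against 1.22 in state 8), and more Eomes, a T-box factor that acts with Nodal (0.510 against 0.237), and Fgf8 (0.637 against 0.143). These were the 2 of 11 measured genes listed as downstream of Nodal that reached 0.5 in state 17, and 0 did in state 8. Of all genes, 9.97% reached 0.5 in state 17 and 8.71% in state 8, so counts this small cannot tell the states apart. The median of the 11 was 0.029 in state 17, against 0.018 in state 8. Over all genes it was 0.034 and 0.032. Mesp1 (0.018 against 0.062) and Sox17 (0.0033 against 0.0175) were among those lower in state 17. Skil, which encodes a repressor of SMAD activity, was also highest in state 17 at 0.528, against 0.279 in state 8. State 17 lists 66 genes at 0, against 5 in state 8, and the part of this in the differences was not tested.

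Both genes were higher in state 37 than in the presomitic mesoderm-like state. Lefty2 was at 1.12 in state 37, against 0.106 in presomitic mesoderm-like state 30, and Tdgf1 at 0.947, against 0.00027. These differences of 1.02 and 0.947 both passed, among 27 genes (3.79%), and ranked 3 and 4 by size. Between state 37 and its nearest state in the map, state 2 (r = 0.703), the difference was 0.522 for Lefty2, which passed, and 0.468 for Tdgf1, which did not. Only 4 genes (0.562%) passed there, and of these Lefty2 alone was higher in state 37. The other 3 were higher in state 2, namely Aldh1a2 (0.038 in state 37 against 0.741), which makes retinoic acid, Cdx1 (0.080 against 0.771) and Cited1. The median level of all genes was 0.043 in state 37, against 0.079 in state 2. With each state centred on its median, the Tdgf1 difference was 0.504 and passed.

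On the neural side Tdgf1 was close to 0. It was at 0.0019 and 0.0010 in states 1 and 39, which carry neural markers, against 0.252 to 0.732 in the epiblast-marked states. The difference of -0.517 passed, among 17 genes (2.39%), and ranked 16 by size of all genes. It fell short of the rule without state 3 (-0.446) or without state 17 (-0.449). Lefty2 was at 0.034 and 0.0018 in states 1 and 39, against 0.041 to 0.264, a difference of -0.107. Of the 14 pluripotency and epiblast genes 4 passed as lower in the neural states and 0 as higher. Their median difference was -0.34, against 0.004 over all genes. Many of the 14, among them Pou5f1, Utf1 and Pim2, are also epiblast markers by which the epiblast-marked states were chosen.

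The heart states differed in Tdgf1. Heart tube-like state 21 has 13 of 13 measured heart markers over 1 SD, and its nearest state is state 6 (r = 0.537), with 7 of 13 of these and 5 of 7 markers of pharyngeal and second heart field mesoderm. Tdgf1 was at 0.557 in state 21, against 0.0165 in state 6, and the difference of 0.540 passed, among 37 genes (5.2%). By size it ranked 36 of all genes, so it was among the smallest that passed. Lefty2 was at 0.329 in state 21, against 0.389 in state 6, a difference of -0.060. Of 12 measured genes of the heart fields and outflow tract 3 passed as higher in state 21, Nkx2-5, Actc1 and Myl7. All 3 are also on the heart marker list that named state 21, so these passes follow in part from the naming. Nkx2-5, an early cardiac transcription factor, was at 1.02 in state 21, against 0.369 in state 6. Of 14 measured pluripotency and epiblast genes 0 reached 0.5 in state 21, as did 15.7% of all genes. Their median there was 0.020, against 0.060 for all genes. Pou5f1 was at 0.027 and Nanog at 0.001, and the highest of the 14 was Dnmt3b at 0.248. Eomes, a T-box gene outside that list, was at 0.002.

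Against unnamed state 34, which has 5 of 8 somite markers over 1 SD, both heart-marked states were higher in Lefty2, with 0.389 and 0.329 against 0.0022. The mean difference of 0.357 did not pass, where 31 genes did (4.35%). For Tdgf1 it was 0.284 and did not pass, since state 6 lies near state 34 (0.0026). With state 21 alone it was 0.554 and passed. Somite-like state 20, whose nearest state is state 34 (r = 0.754), had Lefty2 at 0.230. States 12 and 20 exceeded states 18 and 30 in Lefty2, with 0.210 and 0.230 against 0.053 and 0.106, and in Tdgf1 all 4 were at 0.009 or below. Neither gene passed there, and 1 gene of the table did (0.14%).

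The node, where Nodal signalling later sets left and right, is marked in 2 related states. Tdgf1 was at 0.196 in state 38, which has 12 of 12 node and notochord markers over 1 SD, against 0 in state 23 with 8 of 12. Lefty2 was low in both, at 0.0037 in state 38 and 0.035 in state 23. Against neuromesodermal progenitor-like states 26 and 31 neither gene passed, with differences of 0.093 for Tdgf1 and -0.005 for Lefty2, where 55 genes (7.72%) did. State 38 held Foxj1, a regulator of motile cilia, at 1.13 and Noto, a node homeobox gene, at 0.944.

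Both genes were low in endoderm, germ cells and trophoblast. In gut endoderm-like state 7 Lefty2 was at 0.0144 and Tdgf1 at 0.040, against means of 0.025 and 0.026 in visceral endoderm-like states 4, 29 and 40. Neither passed, where 52 genes (7.3%) did. Primordial germ cell-like state 27 had Pou5f1 at 1.17 and Tdgf1 at 0.076, against Tdgf1 levels of 0.252 to 0.732 in the epiblast-marked states. The difference of -0.443 did not pass, where 22 genes (3.09%) did, and that of Lefty2 was -0.088. State 27 also had the streak gene T at 0.796 and Mesp1 at 0.497, but Eomes at 0.019 and Mixl1 at 0.064. Of the 11 measured genes listed as downstream of Nodal 2 reached 0.5 there, as did 9.69% of all genes. Their median was 0.064, against 0.053 for all genes. In extraembryonic ectoderm-like states 0 and 25 Tdgf1 was at 0.031 and 0.044 and Lefty2 at 0.039 and 0.027. The differences from the epiblast-marked states, -0.481 for Tdgf1 and -0.092 for Lefty2, did not pass, where 45 genes (6.32%) did. States 0 and 25 held Eomes at 0.566 and 0.463.

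Of 27 listed components of the Nodal pathway, 5 were measured, and Nodal itself, its receptors and the convertases that process it were not analysed here. Besides both members these were Fst, Fstl3 and Skil. Fst, which encodes follistatin, a secreted antagonist of activin, was highest in parietal endoderm-like state 14 (1.45) and was at 0.889 in state 3 and 0.624 in state 37. Its r was 0.235 with Lefty2 and 0.283 with Tdgf1. Fstl3 was highest in differentiated trophoblast-like state 28 (0.556) and had r = -0.068 with Lefty2.

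Of the 10 genes most like Lefty2, 8 were highest in state 37, as were 1.40% of all genes, and Myl7 and Dll3 were not. By Pearson's r over the 42 states they were Mesp1 (0.838), Mixl1 (0.767), Mesp2 (0.757), Tdgf1 (0.733), Lhx1 (0.677), Frzb (0.650), Myl7 (0.634), Pmaip1 (0.589), Agtrap (0.562) and Dll3 (0.560), and the median over all genes was -0.072. Lefty2 peaks sharply in state 37, so a choice by r favours genes that peak there, and the count of 8 follows in part from it. Without state 37, Lhx1 ranked 21, Mesp2 28, Agtrap 60 and Pmaip1 69 by r with Lefty2. Mixl1 encodes a homeobox factor of the streak and mesendoderm, Frzb a secreted Wnt antagonist and Dll3 a Notch ligand of the segmenting mesoderm. For Tdgf1 the order was Pmaip1 (0.803), Vrtn (0.784), Mixl1 (0.743), Lefty2 (0.733), Eomes (0.724), Bcl11a (0.713), Fgf5 (0.695), Mesp1 (0.682), Zic5 (0.631) and Agtrap (0.628). Fgf5, a growth factor gene of the epiblast, was at 0.656 in state 17, 0.301 in state 37 and 0.001 in state 21. The lists share 4 genes besides the members themselves, Mixl1, Mesp1, Pmaip1 and Agtrap. In heart tube-like state 21 Tdgf1 was at 0.557 and Lefty2 at 0.329. Among the 9 genes closest to Tdgf1 besides Lefty2, the highest level there was 0.136, that of Agtrap. Each gene has its own range, and Agtrap reached at most 0.506, in state 37.

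**Figure D4:**
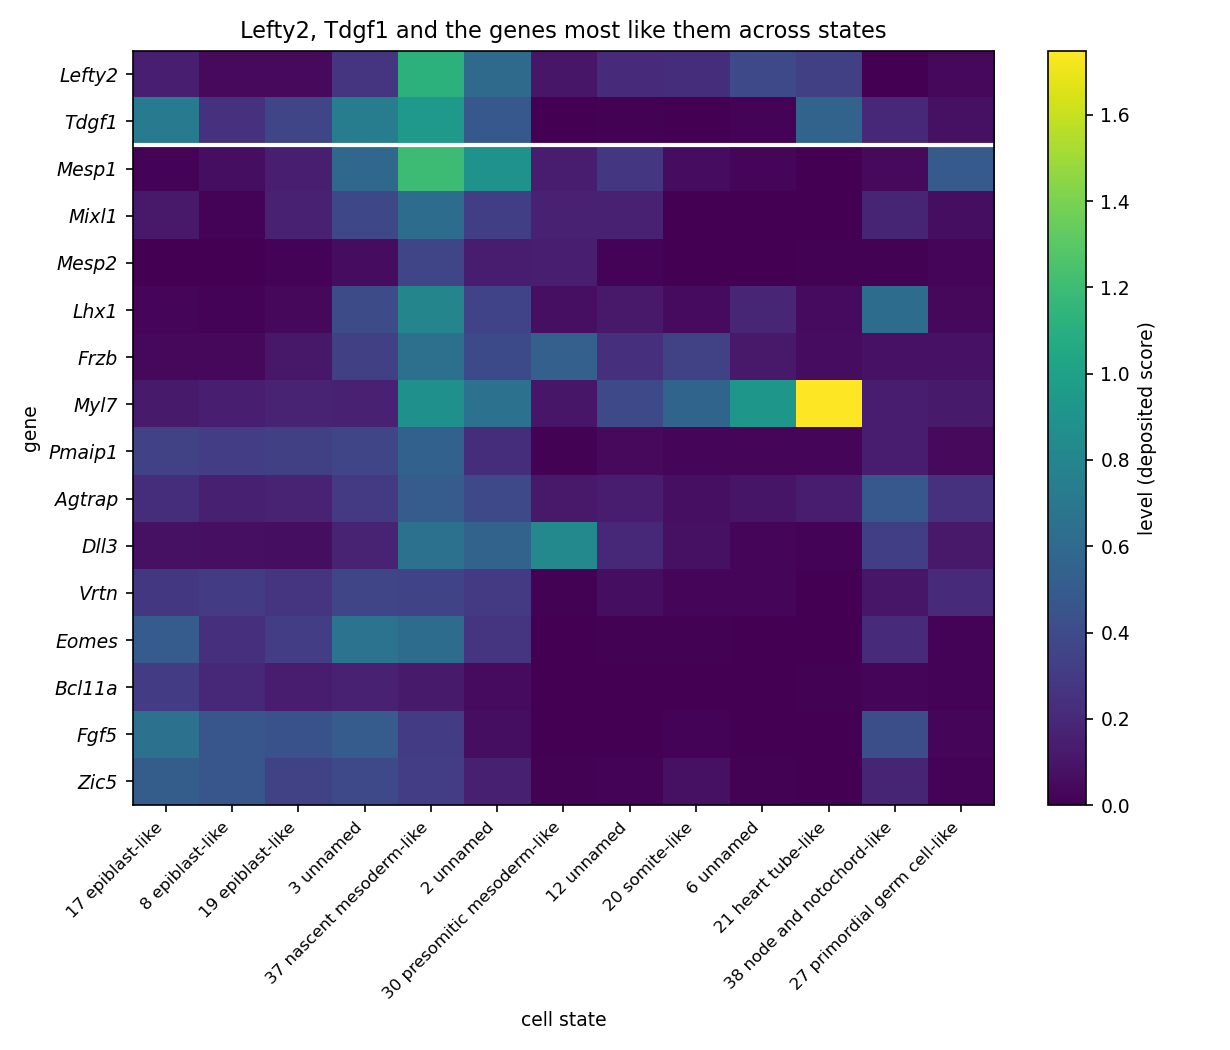
Level (deposited score, colour) of Lefty2, Tdgf1 and, under the white line, the genes most like either of them, in 13 states from epiblast on the left through mesoderm and heart to node and germ cells. Mesp1, like Lefty2, is highest in state 37 and next in state 2, and of the genes under the line only Myl7 (1.75) is above 0.2 in heart tube-like state 21.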

How the data were processed

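Whole-embryo cells were profiled with 10x Genomics 3' chemistry (version 2), per the labels' protocols, and reads were processed with Cell Ranger on mm10, per the submitters' processing notes. The only table used here holds the score of each gene in each state, deposited by the authors as cluster centers per the file headers. Its scaling, logarithm, clustering and gene choice are not given in the sources used here. So differences were taken by subtraction, no fold was formed, a level says nothing of one gene's abundance against another's (a cutoff shared by genes only sorts states), and no depth per state, interval or p-value could be given.

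States were named from 24 marker lists. The list with the highest median z-score over at least 4 measured members gave the name, if at least 3 exceeded 1 SD, at least 1 was among the state's 10 leading genes and no other list had more there. The genes named are the members, the listed pathway genes, the 10 genes closest to each member by r, markers of their states, and the genes that passed where 5 or fewer did. The members, lists, state sets and rules were chosen with earlier results of these data known. States in a comparison are not replicates. Start regions are from RefSeq, positions from GENCODE M21. Python 3.11.15, pandas 2.3.3 and numpy 2.4.6 were used, and the counting rule was tested on simulated data. Alternatives are given in the closing section. One description names day 8.0 for a library titled and staged as day 8.5.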

Additional observations from a re-analysis of the deposited data

How the results depend on the processing

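Of 171 values recomputed under alternatives, 135 were counted as the same, which for a difference means the same direction and side of the rule. The 171 also hold counts of states, correlations and gene lists, to which the rule does not apply. A threshold of 0.25 cannot undo a pass and one of 0.75 cannot create one, so part of the 135 was fixed in advance. No difference that passed changed sign, but small ones that did not pass did. For gut against visceral endoderm, Tdgf1 was -0.0547 with states centred on their median, and Lefty2 was 0.00234 with the median of the states and -0.0230 to 0.0076 with 1 state left out. For node against neuromesodermal states, leaving out 1 state gave -0.0205 to 0.0104 for Lefty2 and -0.00483 to 0.191 for Tdgf1. For states 12 and 20 against 18 and 30, Tdgf1 was -0.00101 with centring. Lefty2 reached 0.25 in 5 states, 0.5 in 2 and 0.75 in 1, and Tdgf1 in 7, 4 and 1. At a threshold of 0.25 the Tdgf1 differences also passed for state 37 against epiblast-marked states (0.429), state 3 against states 8, 17 and 19 (0.285), state 37 against 2 (0.468), states 6 and 21 against 34 (0.284), state 27 (-0.443) and states 0 and 25 (-0.481) against epiblast-marked states, and so did Lefty2 for states 6 and 21 against 34 (0.357). At 0.75, Lefty2 for state 37 against 2 (0.522) and Tdgf1 for neural against epiblast-marked states (-0.517) and for state 21 against 6 (0.540) no longer passed. With states centred on their median, Tdgf1 for state 37 against 2 passed (0.504), and no difference shifted by more than 0.068. With the median of the states, Tdgf1 for states 0 and 25 against the epiblast-marked states passed (-0.507). Leaving out 1 state at a time gave Tdgf1 differences of -0.606 to -0.446 for neural against epiblast-marked states (short of 0.5 without state 3, and at -0.449 without state 17), 0.0139 to 0.554 for states 6 and 21 against 34 (passing without 6), -0.531 to -0.371 for state 27 (passing without 8) and -0.570 to -0.410 for states 0 and 25 (passing without 8, and at -0.531 without 19). The correlation of the members was 0.606 by Spearman's rho, 0.566 without state 37 and -0.018 without states 37, 2, 3, 17 and 21. That last alternative was added after the data had been seen and leaves out the states in which both genes were above 0.1, so it removes the relation by its construction. Of the 10 genes closest to Lefty2, 4 were shared with the 10 by Spearman's rho and 4 with the 10 found without state 37, and for Tdgf1 these were 3 and 6. No paired analysis was possible because values are given per state and not per sample. The unknown number of cells and reads per state limits every low level.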

Other observations

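Myl7, a myosin light chain gene of the atrial and early heart muscle, was the gene closest to Lefty2 once state 37 was left out (r = 0.667, against 0.634 over all 42 states). It was at 1.75 in heart tube-like state 21, 0.926 in state 6, 0.875 in state 37, 0.651 in state 2 and 0.563 in somite-like state 20, which are 5 of the 6 states with the highest Lefty2. In the remaining one, state 3, Myl7 was at 0.161. Myl7 was also at 0.520 in endothelium and blood progenitor-like state 13, where Lefty2 was at 0.014. Of the 12 measured heart field genes 1, Myl7, reached 0.5 in state 37, as did 8.57% of all genes. Hand1 (0.378), Gata6 (0.337) and Gata4 (0.25) followed there, and the other 8 were below 0.1. The median level of the 12 in state 37 was 0.054, against 0.043 for all genes.

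Over the 42 states Tdgf1 and Pou5f1 had r = 0.623, which made Pou5f1 the next gene after the 10 most like Tdgf1. The states named here were chosen after their values were seen and are not all those in which the genes parted. Pou5f1 was at 1.04 in neuromesodermal progenitor-like state 26, 0.821 in state 11 and 0.760 in state 1. Tdgf1 was at 0.0076, 0.0067 and 0.0019 in these states. Pou5f1 was at 1.17 in primordial germ cell-like state 27 and 0.921 in node-like state 38, where Tdgf1 was at 0.076 and 0.196 on its own scale. For Tdgf1 state 38 ranked 8 of the 42 states, so its level there was not among the low ones. In heart tube-like state 21 Pou5f1 was at 0.027 and Tdgf1 at 0.557.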
